A study of Mus musculus with 2 samples.

Results

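Cytosolic ribosomal protein genes encode the proteins of the small (40S) and large (60S) subunits of the ribosome that translates messenger RNA in the cytosol. Members were taken by symbol: Rpl or Rps followed by a digit, plus Rpsa, Rplp0, Rplp1 and Rplp2, without the Rps6k kinases and without symbols that end in a pseudogene tag (-ps). A member also needed 50 or more unique molecular identifiers (UMIs, each standing for 1 captured RNA molecule) over both libraries. Of the 27998 genes in the files, 87 symbols matched and 85 passed the minimum, 34 of the small and 51 of the large subunit. Rpl3l, with 95 UMIs, lay just inside it, and Rpl10l (47 UMIs) and Rpl39l (35 UMIs) lay just outside. Standard subunit names were carried by 77 members, and the other 8 were Rpl3l, Rpl6l, Rpl7l1, Rpl22l1, Rpl36al, Rps27l, Rps27rt and Rps19bp1, which are named after a ribosomal protein as a copy, a relative or a binding partner.

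Each ribosome holds a single copy of nearly every one of these proteins, and cells are known to make their messenger RNAs in step. Most of these messengers begin with a run of pyrimidines (C and T in the gene), the 5′ terminal oligopyrimidine or TOP motif, through which the kinase mTOR controls their translation together. Ribosomal protein messengers are among the most abundant in any cell, and resting lymphocytes, which have little cytoplasm, are known to carry a large share of them.

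The 2 libraries came from CD45+ cells (leukocytes, by their surface protein CD45) that had been sorted from tumours of C57BL/6 mice and captured in droplets with 10x Genomics 3′ chemistry. All mice had been given 50000 cells of MC38-GFP, a mouse colon adenocarcinoma line marked with green fluorescent protein, under the skin. All had also received antibody to the T cell receptor PD-1 at a dose below the optimum, with 100 ug given on each of days 12, 15, 18 and 22, so no untreated group was compared. By the labelled outcome of treatment, 1 library was from responders and 1 from non-responders; ages and the number of mice or tumours behind each are not in the labels. With 1 library per group no test between the groups was possible. A difference given as responder against non-responder separates these 2 libraries, and its 95% interval covers counting error only.

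The non-responder library had 2580 barcodes and 32032569 UMIs, and the responder library 4425 barcodes and 45866561 UMIs. After filtering, 2565 and 4376 cells remained, with medians of 11752 and 10043 UMIs, and 14 barcodes occurred in both libraries. Cells were clustered without the 85 members, so that their counts did not enter the classes directly. Symbols with a pseudogene tag were not kept out. Clusters with the markers fixed for a cell type gave 2186 non-responder and 4099 responder macrophage-like cells, 61 and 87 T cell-like cells, 96 and 42 dendritic-like cells, 19 and 4 NK cell-like cells and 20 and 22 fibroblast-like cells. Droplets with markers of both T cells and macrophages (32 and 103) were kept apart as mixed, and a cluster led by S100a8 and S100a9 (151 and 19) stayed unnamed. The dendritic-like cluster was led by Ccl17, Ccl22 and Ccr7 over both libraries, but its responder cells went against that name: their 13 macrophage markers summed to 35962 CPM (12791 in the non-responder library) and their 13 dendritic markers to 1695 CPM, beside 1543 CPM in responder macrophage-like cells. Ptprc, the defining gene of the sort, encodes CD45. It was at 128.8 and 178.7 CPM (UMIs of the gene per 1000000 UMIs of the class) in macrophage-like cells. In fibroblast-like cells Ptprc was at 3.75 and 9.06 CPM, against their labelled sort. Their name rests on few genes: 3 of 8 fibroblast markers were at 50 CPM or more in each library. Whether these cells came from the host or from the injected line was not tested. Lum was not detected in the non-responder cells, nor Col1a1 in the responder cells. The 8 markers summed to 2310 and 1578 CPM there, beside 4.53 and 4.22 CPM in macrophage-like cells.

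Rps27 and its relatives differed from each other in the comparisons below, so its sequences are given first. Rps27 (chr3:90212522-90213651, minus strand, 4 exons) has a copy, Rps27rt (chr9:114982366-114982739, minus strand), that is annotated with a single exon, and a relative with introns, Rps27l (chr9:66946086-66949516, plus strand). The last 60 coding bases of each, bases 193 to 252 of 252 in GRCm38, are printed on the coding strand, and capitals mark the bases that differ from Rps27.

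Rps27: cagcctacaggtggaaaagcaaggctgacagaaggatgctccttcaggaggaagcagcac
Rps27rt: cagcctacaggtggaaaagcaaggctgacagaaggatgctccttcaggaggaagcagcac
Rps27l: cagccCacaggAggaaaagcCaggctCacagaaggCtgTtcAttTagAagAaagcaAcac

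Rps27rt did not differ from Rps27 at any of the 252 coding bases, and Rps27l differed at 60 of the 252, 11 of them in the stretch shown. Of the 30-base words in the last 300 bases of Rps27rt, 89.3% also occur in transcripts of Rps27, so 3′ reads of this pair cannot be fully told apart and both are reported as uncertain. The same share was 100% for Rpl6l, which is annotated as a processed pseudogene (chr10:111125851-111126721), against Rpl6. It was 0% for Rps27l, Rpl22l1, Rpl36al, Rpl7l1, Rpl3l and Rps19bp1 against the genes they are named after.

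Start windows were read from RefSeq promoters (GRCm38.p6), from 15 bases before to 15 bases after each start on the gene's strand. The 6 below show the range of the pyrimidine run, and capitals mark the longest run of C and T.

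Rpl15: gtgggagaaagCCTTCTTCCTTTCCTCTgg
Rpl13a: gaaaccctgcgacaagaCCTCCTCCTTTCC
Rps6: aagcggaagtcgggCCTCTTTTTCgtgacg
Rps15a: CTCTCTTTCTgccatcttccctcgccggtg
Rpl10: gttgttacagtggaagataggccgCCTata
Rpl7l1: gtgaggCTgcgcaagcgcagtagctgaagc

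The runs were 17 bases long in Rpl15 (chr14:18270972-18271001), 13 in Rpl13a (chr7:45128731-45128760), 10 in Rps6 (chr4:86857353-86857382) and 10 in Rps15a (chr7:118116133-118116162). They were 3 bases long in Rpl10 (chrX:74270801-74270830) and 2 in Rpl7l1 (chr17:46782642-46782671). A run of 7 or more C or T bases, searched on the gene's strand only, was found in 33 of the 64 members with an entry, or 51.56%, and in 5747 of all 27025 genes with one, or 21.27%. The run did not set members apart by their values. Over the 57 members with a standard name and an entry, the median log2 ratio of responder over non-responder in macrophage-like cells was -0.22 for the 31 with a run and -0.27 for the 26 without. For T cell-like over macrophage-like cells the medians were 0.80 and 0.80 in the non-responder library. A match to the letters is a description of the window, not evidence of a working motif.

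The 85 genes gave 14473365 UMIs, 18.58% of all UMIs in the 2 libraries. They lie on 19 chromosomes, with 14 on chromosome 7 and 4 on the X chromosome. Among the 5 with most UMIs were Rpl41 (369559), Rpl32 (355805), Rps19 (332813) and Rps23 (304276). UMIs are counted at the 3′ end, 1 per molecule, so these counts were not divided by gene length.

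The first question was how much of a cell's RNA these genes made up in each lineage. Macrophage-like cells had the smallest or nearly the smallest share and T cell-like, NK cell-like and fibroblast-like cells the largest. In the non-responder library the members took 19.9% of the summed UMIs of macrophage-like cells [19.9-19.9], 24.4% of dendritic-like cells, 34.5% of T cell-like cells [34.3-34.6], 36.4% of NK cell-like cells and 31.9% of fibroblast-like cells. In the responder library the shares in the same order were 16.7% [16.7-16.7], 16.6%, 25.2% [25.1-25.3], 33.4% and 32.8%. On the log2 scale T cell-like cells stood 0.79 above macrophage-like cells in the non-responder library [0.78-0.80] and 0.59 above in the responder library [0.58-0.60]. The NK, dendritic and fibroblast-like values rest on fewer than 50 cells in at least 1 library and are given as values only, and the responder dendritic-like value is of cells rich in macrophage markers.

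The share was lower in the responder library in macrophage-like and T cell-like cells, and it was not lower in fibroblast-like cells. Per cell, the median share of macrophage-like cells was 19.7% in the non-responder and 16.4% in the responder library, and 82.0% of the responder cells lay below the non-responder median. In T cell-like cells the medians were 33.98% and 24.12%, and 95.4% of the responder cells lay below the non-responder median. In fibroblast-like cells the medians were 32.08% and 33.98%. The ranges of the cells overlapped between libraries in all 3 classes. The log2 ratio of the summed shares was -0.25 [-0.26 to -0.25] in macrophage-like and -0.45 [-0.46 to -0.44] in T cell-like cells.

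**Figure D1:**
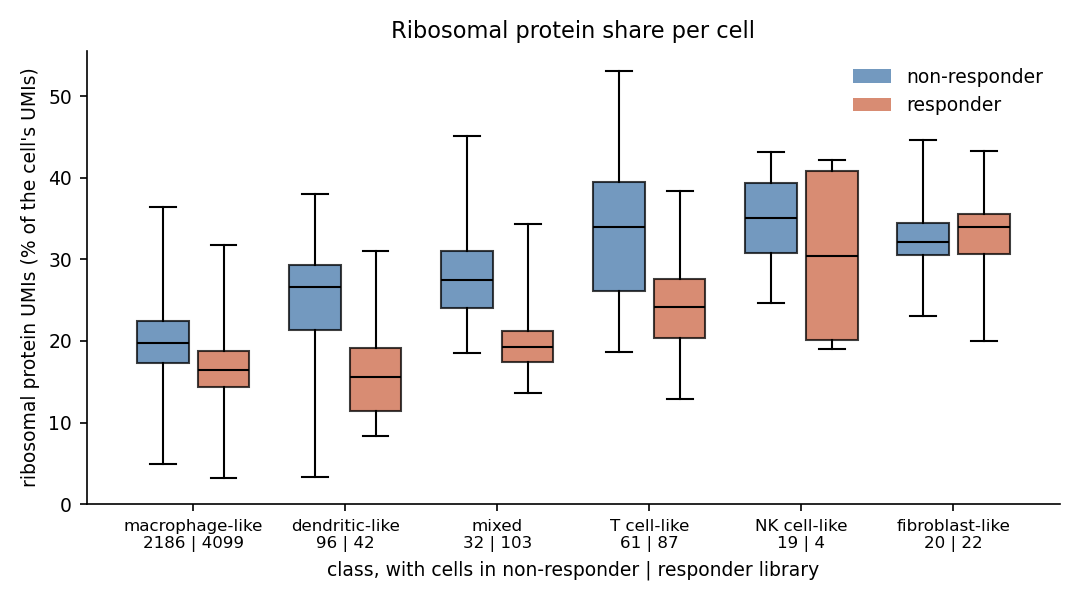
Share of each cell's UMIs that came from the 85 ribosomal protein genes (y axis, percent) by class and library (x axis, with the cells in each). Boxes span the quartiles, the line is the median and whiskers reach the lowest and highest cell. The responder boxes are lower in macrophage-like, dendritic-like, mixed and T cell-like cells, and the fibroblast-like boxes overlap.

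A share can move because other RNA moves, so the UMIs themselves are given beside it. Macrophage-like cells had medians of 2400.5 ribosomal protein UMIs among 12164.5 UMIs in the non-responder and 1672 among 10106 in the responder library. T cell-like cells had 1673 among 4908 and 909 among 3685. Fibroblast-like cells, the largest in RNA, had 10493 among 32118.5 and 8124 among 29277. The share did not follow the depth of the cell in the non-responder library: over bins of 5000 UMIs the macrophage-like share ran from 19.7% to 20.1%. In the responder library it ran from 15.0% in cells under 5000 UMIs to 16.8%. The 4 MHC class II genes Cd74, H2-Aa, H2-Ab1 and H2-Eb1, which present antigen, took 1.27% of macrophage-like UMIs in the non-responder and 6.41% in the responder library. With those 4 genes left out of the total, the log2 ratio of the macrophage-like share was -0.18. Both subunits shared the difference, with 8.48% and 7.22% for small subunit members and 11.4% and 9.48% for large subunit members.

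Macrophage-like cells of the 2 libraries fell mostly into different clusters, so the share was also read cluster by cluster. Cluster 0, with Fcrls and Pf4 among its leading genes, held 1107 of the non-responder cells and had a share of 20.1%. Cluster 9, led by the elastase gene Mmp12 and the haem oxygenase gene Hmox1, had the largest share, 21.1% in 460 non-responder and 20.8% in 32 responder cells. Cluster 10, led by type I interferon-induced genes such as Ifit3 and Rsad2, was lower at 18.0% in 178 non-responder cells. The lowest share was 13.1%, in the 60 responder cells of cluster 14, which was led by the chemokine gene Ccl5 and the complement gene C3. Cluster 5, the largest responder cluster with 1069 cells and with Fam26f and Ccl8 in the lead, had 15.2%.

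A comparison within clusters was possible in clusters 4, 5, 8 and 9, where both libraries had 20 or more cells. The share was 18.1% in 29 non-responder and 16.4% in 496 responder cells of the dividing cluster 4. In cluster 5 it was 17.8% in 22 and 15.2% in 1069 cells. In cluster 8 it was 19.1% in 51 and 17.8% in 854 cells. The log2 ratios were -0.14, -0.23, -0.10 and, in cluster 9, -0.02. All 4 were below 0, and all 4 were smaller in size than the -0.25 of the whole class. The median log2 ratios of the members in clusters 4, 5, 8 and 9 were -0.16, -0.21, -0.11 and -0.02, beside medians over all genes of 0.003220, 0.07, 0.003092 and -0.14. In cluster 9 the members thus stood above all genes, with 47 of 84 lower in the responder library. Their equal-weight mean was -0.12.

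**Figure D2:**
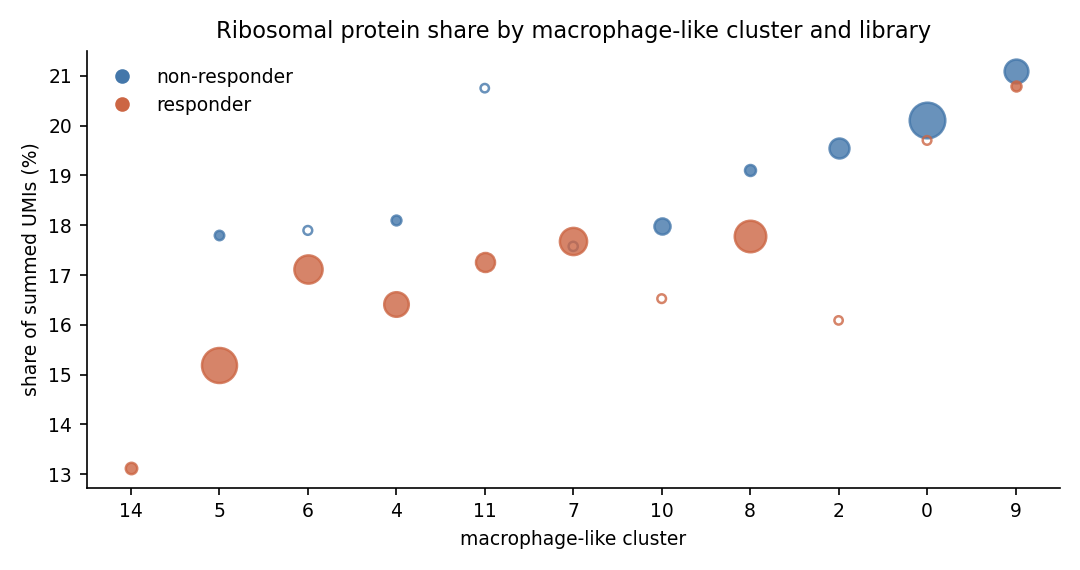
Share of the summed UMIs that came from the 85 genes (y axis, percent, not from 0) in each macrophage-like cluster (x axis). Point area grows with the number of cells, and open points have fewer than 20 cells. Responder clusters run from 13.1% in cluster 14 to 20.8% in cluster 9, and clusters 0 and 9 hold most of the non-responder cells at 20.1% and 21.1%.

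T cell-like clusters spanned a wider range of shares. Cluster L4 had the T cell receptor genes Cd3g and Cd3d, Cd8a, Cd8b1 and the chemokine gene Xcl1 in the lead. Its share was 37.9% in 40 non-responder and 32.0% in 16 responder cells. Cluster L2, with the regulatory T cell genes Foxp3, Ikzf2 and Ctla4, had 25.6% in 20 non-responder cells and 16.8% in 4 responder cells. Cluster L5, like L4 with Cd8a in the lead, and also with the granzyme gene Gzmb, had 23.8% in 67 responder cells. The non-responder class was thus mainly L4 and the responder class mainly L5, and within L4 alone the log2 ratio of the share was -0.24. Macrophage marker RNA in T cell-like cells was also higher in the responder library: the 13 markers summed to 1035 CPM in the non-responder (5 of 13 at 50 CPM or more, Mrc1 and Mertk at 0) and to 2389 CPM in the responder library (6 of 13, none at 0). In macrophage-like cells the same sums were 48863 and 49138 CPM. The part of that RNA in the T cell-like values was not tested.

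Member by member, the difference between libraries in macrophage-like cells was broad and small. Of the 85 members 82 had a lower CPM in the responder library, with a median log2 ratio of -0.26, while over all 10798 genes measured the median was -0.09 and 39.9% were higher. By size, 2 members were lower by more than 1.5-fold, where 11.4% of all genes were, and 0 were higher by as much, where 8.33% of all genes were. The members thus differed together and by small amounts. Small subunit members had a median of -0.25 and large subunit members of -0.27.

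The members lower by more than 1.5-fold were Rpl6l and Rpl22l1, both named as relatives of a standard gene. Rpl22l1, the paralogue of Rpl22, was at 892.2 CPM in the non-responder and 572.6 CPM in the responder library, a log2 ratio of -0.64 [-0.67 to -0.61]. Rpl22 itself was at 963.3 and 872.3 CPM, so Rpl22l1 UMIs were 92.6% of those of Rpl22 in the non-responder and 65.6% in the responder library. In T cell-like cells that percentage was 111% and 109%, and in fibroblast-like cells 69.8% and 42.1%. Rpl22l1 was thus below its partner in macrophage-like and fibroblast-like cells of both libraries, while the T cell-like intervals spanned equal counts of the pair. Within clusters 4, 5, 8 and 9 the log2 ratio of Rpl22l1 was -0.03, -0.51, -0.09 and -0.73.

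Rpl6l was at 522.3 CPM in the non-responder and 296.5 CPM in the responder library, a log2 ratio of -0.82 [-0.85 to -0.78]. As a percentage of Rpl6, whose transcripts hold every 30-base word of its 3′ end, it was 20.6% and 15.3% in macrophage-like cells. The percentage kept to the library and not to the cell type: it was 20% and 14.1% in T cell-like, 20.4% and 14.9% in fibroblast-like and 20.9% and 15.8% in dendritic-like cells. Symbols with a pseudogene tag behaved likewise. Together, 15 such symbols had 10.6% of the UMIs of their 13 parent genes in the non-responder and 7.95% in the responder library in macrophage-like cells, 10.4% and 7.91% in T cell-like cells and 10.6% and 7.95% in fibroblast-like cells. Rpl6l thus went with the library in these 4 classes, while NK cell-like cells had 19.9% and, on 13 UMIs, 21.7%. How reads were assigned between such copies was not tested.

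Among standard members the lowest ratio belonged to Rpl27, with 992.5 CPM in the non-responder and 668.0 CPM in the responder library, a log2 ratio of -0.57 [-0.60 to -0.55]. Rpl15 followed with 588.0 and 403.8 CPM, at -0.54 [-0.57 to -0.51]. Both are large subunit proteins, and both were lower in each of the 4 shared clusters, from -0.50 to -0.44 for Rpl27 and from -0.50 to -0.38 for Rpl15. Rpl10a, Rpl23a and Rpl35 each stood at -0.50. In all, 44 members were lower in each of the 4 shared clusters. The matching count over all genes is not given here, so 44 is not read as a result about the members. In cluster 9 the median over all genes (-0.14) lay below that of the members (-0.02).

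Against the general direction, Rps20 was higher in the responder library, at 1717 CPM in the non-responder and 1968 CPM in the responder library, a log2 ratio of 0.20 [0.18-0.21]. It encodes a small subunit protein. Rps20 was higher in each of the 4 shared clusters, at 0.19, 0.10, 0.18 and 0.42. The stalk protein gene Rplp1 and Rps2 were too, but by as little as 0.008 and 0.009. Over the whole class both were lower in the responder library. Rplp1 was at 2823.5 CPM in the non-responder and 2734 CPM in the responder library, and Rps2 at 2249 and 2004 CPM. Rpl3l, the relative of Rpl3 best known from striated muscle, had only 25 and 53 UMIs in this class, and its interval of -0.24 to 1.21 spanned 0.

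Other members with known roles were lower by less than 1.5-fold. Rps6, the subunit protein that is phosphorylated when mTOR is active, was at 3372 CPM in the non-responder and 2622 CPM in the responder library. The stalk proteins Rplp0, Rplp1 and Rplp2, which recruit elongation factors, had log2 ratios of -0.33, -0.05 and -0.12. Rpl41, the member with most UMIs, was at 5344 and 4105 CPM.

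In T cell-like cells the difference was larger in size, and Rpl35, Rps18 and Rps19 had the lowest ratios among standard members. Of 83 members measured, 80 had a lower CPM in the responder library, with a median log2 ratio of -0.45. Over all 1730 genes measured in this class the median was 0.12 and 60.6% were higher. Past 1.5-fold, 19 members were lower, where 7.57% of all genes were, and 1 was higher, where 17.9% of all genes were. The one that was higher, Rpl7l1, rested on 19 and 34 UMIs, and its interval of -0.15 to 1.59 spanned 0. Within cluster L4 alone, in 40 and 16 cells, 5 of 82 members were lower past that fold, where 8.46% of all 804 genes were, so that count was near the background. The median there was -0.21 for members and 0.06 for all genes, so the size of the difference depended on the clusters pooled.

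Rpl35, near the polypeptide exit of the large subunit, was lowest, with 2090.1 CPM in the non-responder and 1045 CPM in the responder library, a log2 ratio of -1.001 [-1.18 to -0.82]. Rps18 was at 8497 and 4751 CPM, and Rps19, the gene best known from inherited red cell aplasia, at 7792 and 4372 CPM. Their log2 ratios were -0.84 and -0.83, against -0.39 and -0.35 in macrophage-like cells. Rpl36a stood at -0.83 and Rps28 at -0.77, and Rpl6l, at 795.8 and 408.3 CPM, at -0.96.

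Rpl13a, which in macrophages is also known as a regulator of the translation of interferon-induced messengers, went the other way from most members in T cell-like cells. It was at 9176 CPM in the non-responder and 9538 CPM in the responder library, with an interval of -0.01 to 0.13 on the log2 scale. It was the member with the highest CPM of the T cell-like class in both libraries. Its exons overlap those of the predicted gene Gm45713 on the same strand.

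**Figure D3:**
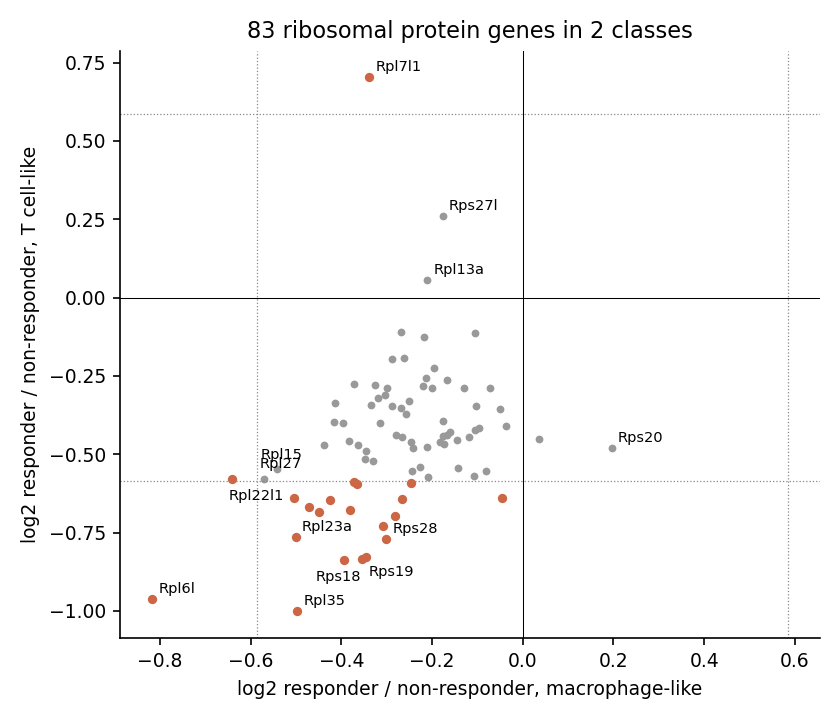
Each point is 1 of the 83 members measured in both classes, with its log2 ratio of responder over non-responder in macrophage-like cells (x axis) and in T cell-like cells (y axis). Dotted lines mark 1.5-fold, and orange points are past it in at least 1 of the classes. Of the 83 members, 78 lie below 0 on both axes, and Rps20 lies right of 0 with a T cell-like ratio of -0.48.

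Fibroblast-like cells, only 20 and 22 in number and with 3 of 8 listed markers at 50 CPM or more, did not share the difference. Of 84 members measured, 46 were higher and 38 lower in the responder library, with a median log2 ratio of 0.04. Past 1.5-fold, 1 member was lower, where 14.5% of all 3101 genes were, and 0 were higher, where 12.1% were. The lower one was Rpl22l1, with 1182 CPM in the non-responder and 731.4 CPM in the responder library. Rpl15 (-0.40) and Rpl6l (-0.37) were also lower, while Rps2, at 4176 and 5642 CPM, and Rps15, at 2906 and 3700 CPM, had the highest ratios among standard members. Rpl22l1, Rpl15 and Rpl6l thus had lower CPM in the responder library in all 3 classes. So did other members, such as Rps3a1 and Rps26, at -0.33 and -0.28 in fibroblast-like cells.

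The second question, which member RNAs differ between lineages, could be tested because both libraries held both classes. T cell-like and macrophage-like sums of the 2 libraries were compared with edgeR's quasi-likelihood test with the library as a block, and calls needed a Benjamini-Hochberg adjusted p under 0.05 over all 10923 genes tested. Of the 85 members 17 were higher in T cell-like cells, where 7.85% of all genes were, and 1 was lower, where 13.5% were. At an unadjusted edgeR p under 0.05 there were 40 members, both directions together. The matching share of all genes is not given here, so the 40 are not read as a result about the members. The median log2 ratio of the members was 0.46 and that of all genes -0.25. Scaling by total UMIs alone moved the median of all genes to -0.02 and that of members to 0.68, with 55 called higher, where 9.35% of all genes were, and 1 lower, where 9.37% were. All 17 and the 1 remained called under that scaling and under DESeq2, and all had the same sign in each library. How many of all genes called did so is not given here. Without the library block 3 members were called higher, where 5.12% of all genes were, and 1 lower, where 8.03% were.

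Rps15a, a small subunit protein, led the difference. It was at 2857 CPM in macrophage-like and 8765 CPM in T cell-like cells of the non-responder library, and at 2290.0 and 7017 CPM in the responder library. Both T cell-like sums were above both macrophage-like sums. The edgeR log2 ratio was 1.40 ± 0.25 (SE, n = 2 libraries), with a Benjamini-Hochberg adjusted p of 1.928e-05. Here and below, the SE rests largely on a spread that edgeR shares over genes.

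Rpl13a was second, at 3711 CPM in macrophage-like and 9176 CPM in T cell-like cells of the non-responder library and at 3208 and 9538 CPM in the responder library. Again the classes did not overlap. Its edgeR log2 ratio was 1.22 ± 0.26 (SE), with a Benjamini-Hochberg adjusted p of 0.000202.

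Rps27, a zinc-finger protein of the small subunit, and Rps27l, its paralogue and a known target of p53, moved in opposite directions. Rps27 was at 2084 CPM in macrophage-like and 5789 CPM in T cell-like cells of the non-responder library, and at 1948 and 4342 CPM in the responder library. Rps27l was at 551.1 and 239.0 CPM in the non-responder and at 487.8 and 286.3 CPM in the responder library. So each class of each library had more Rps27 than Rps27l RNA, but the gap was far wider in T cell-like cells. The edgeR log2 ratios were 1.096 ± 0.249 for Rps27 and -1.20 ± 0.24 for Rps27l (SE), with Benjamini-Hochberg adjusted p of 0.0005664 and 7.859e-05.

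The balance of the pair differed between lineages. Rps27l UMIs were 26.5% and 25.04% of those of Rps27 in macrophage-like cells of the non-responder and responder libraries, and 4.13% [3.27-5.15] and 6.59% [5.38-8.01] in T cell-like cells. NK cell-like cells were near the T cell-like value, with 7.30% and, on 5 UMIs, 4.55%. Fibroblast-like cells had the highest, 32.5% and 42.4%, and dendritic-like cells 18.3% and, in responder cells rich in macrophage markers, 36.2%. Rps27rt, which shares its coding sequence with Rps27, was at 442.0 and 1318 CPM in the non-responder and at 357.3 and 795.3 CPM in the responder library. Its edgeR log2 ratio was 1.15 ± 0.23 (SE). As a percentage of Rps27 it was 21.2% and 18.3% in macrophage-like, 22.8% and 18.3% in T cell-like and 20.9% and 21.9% in dendritic-like cells. Reads of the pair cannot be fully told apart, so calls of Rps27rt, here and below, cannot be read as independent of those of Rps27.

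Rpsa, the small subunit protein also known as a laminin receptor, was at 1544 CPM in macrophage-like and 3568 CPM in T cell-like cells of the non-responder library, and at 1241 and 2701 CPM in the responder library. Its edgeR log2 ratio was 0.95 ± 0.24 (SE), and that of Rpl23a was 0.91 ± 0.25. The other 11 called members lay between 0.64 for Rpl5 and 0.78 for Rps13, with Rpl22l1 at 0.73. Of the 17, 10 belong to the large and 7 to the small subunit. Rps6 (0.57), Rplp0 (0.62), Rplp2 (0.48) and Rplp1 (0.15) did not pass, with edgeR Benjamini-Hochberg adjusted p of 0.09918, 0.07057, 0.1736 and 0.7578. Rpl3l had 0 UMIs in T cell-like cells of both libraries. Rpl7l1 (-0.67) and Rpl36al (-0.06), with adjusted p of 0.09245 and 0.8975 by edgeR, did not pass either.

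**Figure D4:**
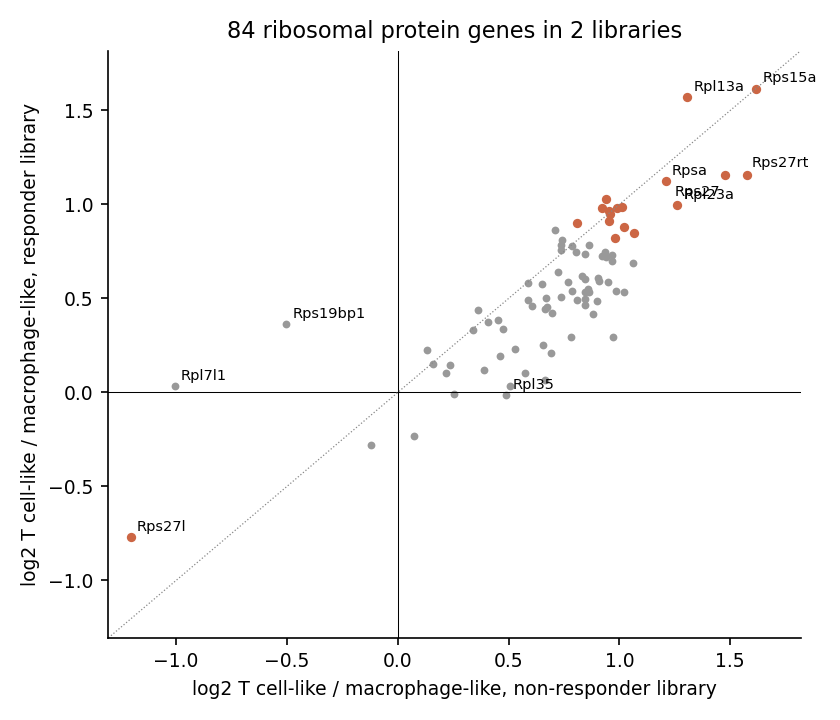
Log2 ratio of T cell-like over macrophage-like CPM for 84 members in the non-responder (x axis) and responder library (y axis), with orange points for members called by edgeR at a Benjamini-Hochberg adjusted p under 0.05. The dotted line marks equal ratios. Rps15a, at 1.62 in both libraries, lies at the upper right and Rps27l, at -1.21 and -0.77, at the lower left.

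The third question was whether members follow the division state of macrophage-like cells. Cells were thinned to 3000 UMIs and sorted by UMIs of an S phase and a G2/M phase gene list into 1108 and 2273 non-dividing cells, 175 and 249 S-range cells and 419 and 626 G2/M-range cells of the non-responder and responder library. The share of members was 19.9% and 16.8% in non-dividing, 20.6% and 17.3% in S-range and 19.5% and 16.3% in G2/M-range cells. The step between the libraries was thus larger than any step between states, and the order of the states was the same in both. Dividing cells held more RNA, with medians of 3199 and 2183.5 ribosomal protein UMIs per G2/M-range cell against 2111.5 and 1566 per non-dividing cell.

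In G2/M-range against non-dividing cells, edgeR with the library as a block called 39 members lower, where 16.5% of all 10474 genes tested were, and 1 higher, where 16.0% were. The median of members was -0.18 and that of all genes -0.04, but the level of both depended on scaling: by total UMIs alone they were -0.02 and 0.11, with 15 members lower, where 9.07% of all genes were, and 6 higher, where 24.2% were. Under edgeR's scaling, total UMIs and DESeq2 alike, 14 were called lower, among them Rpl10, Rpl13a, Rpl17, Rpl27a, Rpl34, Rpl37, Rpl7a, Rpl9, Rps14, Rps27, Rps27rt and Rps9. Rps27l was called higher under all 3. The share of all genes called under all 3 is not given here, so these calls describe the members only. Without the library block no member passed in either direction, where 30 of all 10474 genes were lower and 486 higher. None passed in the S-range comparison either, where 21 of all genes were lower and 343 higher.

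Rps27 and Rps27l again parted. Rps27 was at 2320.3 CPM in non-dividing and 1711 CPM in G2/M-range cells of the non-responder library, and at 2113 and 1610 CPM in the responder library (log2 scale -0.44 and -0.39). Rps27l was at 451.3 and 679.9 CPM in the non-responder and at 443.3 and 594.0 CPM in the responder library. Both libraries therefore showed the same opposite directions. By edgeR, Rps27 fell by 0.57 on the log2 scale with an SE of 0.07, and Rps27l rose by 0.35 with an SE of 0.07, at Benjamini-Hochberg adjusted p of 5.958e-05 and 0.002483. Rps27rt, whose reads cannot be fully told apart from those of Rps27, fell by 0.65 with an SE of 0.08.

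Next came Rpl10, an X-linked gene whose protein is among the last to join the large subunit, at 3789 and 3129 CPM in the non-responder and at 3054 and 2551 CPM in the responder library. It fell by 0.42 with an SE of 0.07 in edgeR's fit (Benjamini-Hochberg adjusted p of 0.0005493). Rps14 and Rpl7a both fell by 0.36. Rpl3l was called lower on very few UMIs, 19 in non-dividing and 0 in G2/M-range cells of the non-responder library and 32 and 5 in the responder library, so no fold is given. Of the 39 members, 27 belong to the large and 12 to the small subunit. Rps6, which is not among the 14, fell by 0.21. Rpsa (0.08), Rplp0 (-0.13), Rplp1 (-0.04) and Rplp2 (-0.11) did not pass, with edgeR Benjamini-Hochberg adjusted p from 0.1578 to 0.6747.

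**Figure D5:**
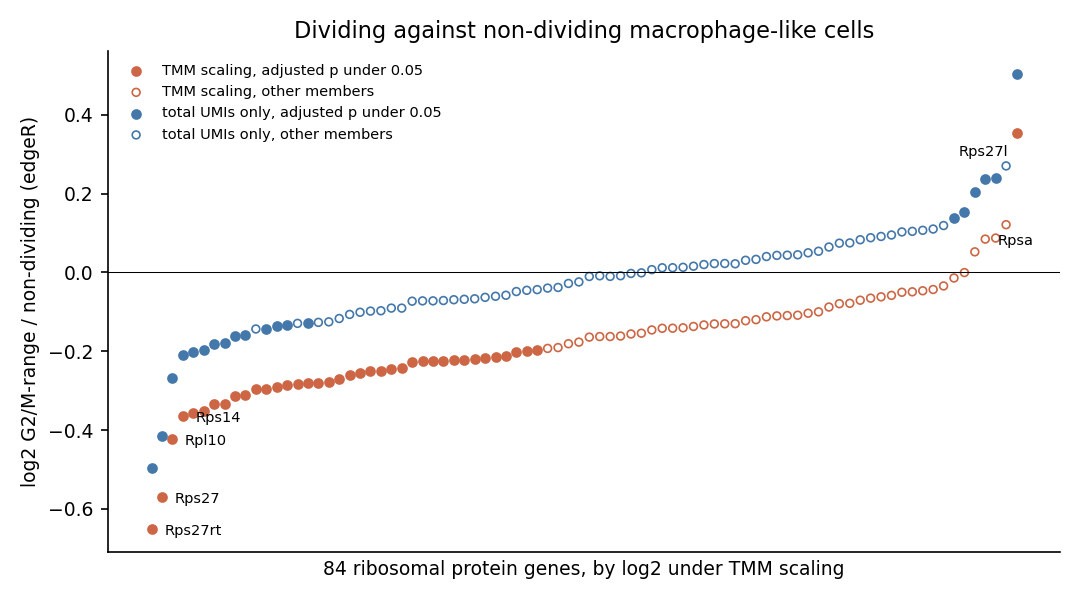
Log2 ratio of G2/M-range over non-dividing macrophage-like cells by edgeR (y axis) for 84 members, ordered by that ratio under TMM scaling (x axis). Orange points use TMM and blue points total UMIs only, and filled points have a Benjamini-Hochberg adjusted p under 0.05. Rps27rt and Rps27 lie lowest and Rps27l highest under both, while the members between move from a median of -0.18 to -0.02.

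In S-range against non-dividing cells, edgeR called 6 members lower, where 10.2% of all genes were, and 2 higher, where 12.7% were. Among the 6 were Rps27 (-0.44), Rps27rt (-0.44), Rps9 (-0.27), Rpl10 (-0.26) and Rps14 (-0.25), and all 6 were among the 39 called lower in G2/M-range cells, which share the non-dividing cells as their reference. Rps27l (0.27) and Rpsa (0.22) were called higher by edgeR, and DESeq2 called no member higher. The median of members was -0.06, but it was 0.06 by total UMIs alone, with 5 members lower, where 6.36% of all genes were, and 15 higher, where 18.1% were. Both counts were near those shares, and the direction of the members as a whole was not settled. Rps27, Rps27rt and Rps9 were called lower under edgeR's scaling, total UMIs and DESeq2 alike. The share of all genes called so is not given here, and reads of Rps27 and Rps27rt cannot be fully told apart. Rpsa, called higher by edgeR, was at 1415 CPM in non-dividing and 1786 CPM in S-range cells of the non-responder library, and at 1163 and 1479 CPM in the responder library.

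Genes that make ribosomes or work with them were read from lists beside the members. Of the small subunit genes under other names, in macrophage-like cells, Fau was at 3721 CPM in the non-responder and 3285 CPM in the responder library, and Gnb2l1 at 919.4 and 745.7 CPM. Of 12 elongation factor genes 1 was higher in the responder library, with a median log2 ratio of -0.20, and Eef2, the translocation factor, was at 1258 and 906.5 CPM. Of 30 genes on a translation initiation list (factors and regulators of them) 2 were higher, with a median of -0.31. The helicase gene Eif4a1 was at 1008 and 634.4 CPM. Of 45 ribosome biogenesis genes 5 were higher, with a median of -0.36. The nucleolar genes Npm1 and Ncl were at 735.8 and 581.6 CPM and at 305.7 and 224.6 CPM. Mitochondrial ribosomal proteins, which serve the separate ribosome of that organelle, were closer to all genes, with 23 of 76 higher and a median of -0.07.

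The same lists were read in the states. In S-range cells edgeR called 25 of 45 biogenesis genes and 24 of 76 mitochondrial ribosomal protein genes higher and 0 of either lower, at a Benjamini-Hochberg adjusted p under 0.05 where 12.7% of all genes were called higher and 10.2% lower. Of the 12 genes on the elongation list 4 were called higher and 0 lower, and of the 30 on the initiation list 7 higher and 5 lower. Ncl rose by 0.38 and Npm1 by 0.24 on the log2 scale. In G2/M-range cells, where 16.0% of all genes were called higher and 16.5% lower, 11 biogenesis genes were called higher and 0 lower, and 16 mitochondrial ribosomal protein genes higher and 1 lower. The elongation list had 2 higher and 4 lower there, and the initiation list 5 higher and 8 lower. Of the cytosolic members, 2 were called higher in S-range and 1 in G2/M-range cells. In T cell-like against macrophage-like cells, 7.85% of all genes were called higher and 13.5% lower. There, 4 of the 12 genes on the elongation list were called higher, Eef2 (0.79) and Tpt1 (0.70) among them, and 0 lower. Of 76 mitochondrial ribosomal protein genes 2 were called higher and 10 lower. Differences between lists were not tested.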

How the data were processed

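The authors deposited UMI counts per gene and barcode, in 1 filtered matrix per library. Per the submitters' processing notes, Cell Ranger 1.1.0 was used with mouse build mm10 (GRCm38). How reads shared by copies were assigned and how cells were called is not given in the sources used here. Barcodes needed 500 or more genes and at most 10% mitochondrial UMIs. Cells were clustered with scanpy 1.11.5 on 2000 variable genes (the 85 members kept out), 30 principal components and 15 neighbours, at resolution 1.0, and named by markers. No doublet caller was run; mixed clusters were kept apart.

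Counts were summed per library and class. Shares and log2 ratios carry exact binomial 95% intervals, genes needed 50 counts, and 1.5-fold was the size used. EdgeR 4.0.16 (TMM scaling, filterByExpr, Benjamini-Hochberg, library as block) tested sums of T cell-like against macrophage-like cells and of division states; DESeq2 1.42.0 was an alternative. With only 2 libraries, edgeR's SEs and p-values rest largely on a spread shared over genes. They do not measure the spread of a single gene between the libraries. Rps15a, with T cell-like over macrophage-like log2 ratios of 1.62 in both libraries, had an SE of 0.25. Rps27l, at -1.21 and -0.77, had an SE of 0.24. S-range cells had 5 or more S list UMIs and under 3 G2/M list UMIs, G2/M-range cells 3 or more G2/M list UMIs, and non-dividing cells 0 G2/M list UMIs and at most 2 S list UMIs. Named members were the 5 with most UMIs, up to 6 per direction with the largest ratios, copies with their partners, Rplp0, Rplp1, Rplp2, Rpsa and Rps6, and the most counted genes of other lists. Members and lists were chosen with earlier results of these data known. Methods were tested on simulated data. For T cell-like against macrophage-like cells, 0 of 50 genes changed 1.5-fold and 14 of 50 changed 2-fold were recovered. For G2/M-range against non-dividing cells, 4 and 36 of 50 were. A member that did not pass may thus still differ by such a size. Some genes are not reported here by name.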

Additional observations from a re-analysis of the deposited data

Results flagged for a closer look

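Rps20 stood on opposite sides of 0 in the 2 classes compared between libraries. The log2 ratio of responder over non-responder was 0.20 in macrophage-like and -0.48 in T cell-like cells. With 1 library per group the difference between classes was not tested.

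The 16 symbols with a pseudogene tag, which were no members, held 206860 UMIs, 1.43% as many as the members. In macrophage-like cells 14 of the 15 with 50 or more UMIs were lower in the responder library, with a median log2 ratio of -0.75.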

How the results depend on the processing

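Each difference in share between libraries and between classes kept its sign under every alternative run. In macrophage-like cells the log2 ratio of -0.25 moved beyond its counting interval to -0.26 with no filter on barcodes, -0.25 with cells of 1000 or more genes and at resolution 0.5, -0.26 as a mean over cells and -0.12 with shared clusters weighted equally. Alternatives chosen after seeing the data gave -0.18 without MHC class II genes in the total, -0.26 without cluster 6 (which against all other clusters led with 1 marker of another type), -0.25 with cluster 1 and -0.26 with pseudogene symbols added. In T cell-like cells -0.45 became -0.43 with cells of 1000 or more genes, -0.44 at resolution 2.0, -0.49 as a mean over cells and -0.24 in cluster L4 only. T cell-like over macrophage-like cells went, in the non-responder library, from 0.79 to 0.78 without MHC class II genes, 0.93 for L4 and 0.77 as a mean over cells. In the responder library 0.59 became 0.61 with no filter, with 1000 or more genes and at resolution 2.0, 0.50 without MHC class II genes, 0.94 for L4 and 0.54 as a mean over cells.

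Members past 1.5-fold in macrophage-like cells (2 lower, 0 higher) were 1 lower under TMM and without MHC class II genes, 29 lower and 1 higher at the smaller of 2 other folds, 0 lower at 2-fold and 1 higher without cluster 6. The median of -0.26 was -0.17 under TMM and -0.12 with shared clusters weighted equally. In T cell-like cells 19 lower and 1 higher became 39 and 0 under TMM, 1 and 0 at 2-fold, 5 lower for L4 and 2 higher with 1 or more counts, and the median of -0.45 became -0.58 under TMM and -0.21 for L4. Shared clusters were not run for T cell-like cells, since no cluster held 20 cells of each library. The shares of all genes past each fold under these alternatives, other than L4, are not given here, so these counts describe the members only.

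Among tested comparisons, T cell-like cells had 17 members higher, and 31 with DESeq2, where 580 of all 10923 genes were. In 1 fit with the 3 states, against non-dividing cells only, 57 members were higher and 2 lower. Over all 10447 genes of that fit, 1459 were higher and 1629 lower. With no library block 3 members were higher, and 55 by total UMIs. G2/M-range cells had 39 members lower and 1 higher. With DESeq2 19 were lower, where 659 of all 10474 genes were. The counts were 0 and 0 with no library block, and 15 and 6 by total UMIs, with a median of -0.024. S-range cells had 6 members lower and 2 higher. With DESeq2 there were 3 and 0, where 466 of all 10474 genes were lower and 792 higher. With no filter on low counts 14 were lower, where 1425 of all 15785 genes were. The counts were 0 and 0 with no library block, and 15 were higher by total UMIs, with a median of 0.062. With either library left out, medians ran from 0.29 to 0.66, from -0.20 to -0.14 and from -0.09 to -0.02. No paired analysis was possible because the groups share a single replicate number given in accession order.

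By total UMIs, signs reversed in G2/M-range cells for Rplp0 (0.022), Rpl32 (0.012), Rps19 (0.043), Rplp2 (0.045), Rpl41 (0.11) and Rplp1 (0.11), and in S-range cells for Rps6 (0.092), Rplp0 (0.10), Rpl32 (0.049), Rps19 (0.078), Rplp2 (0.074), Rpl41 (0.11) and Rps23 (0.067). Under the stricter state cut Rpl41 was at 0.021 in S-range cells. Of 602 values of 80 single genes, 431 kept direction, call and size, 104 moved, 32 lost and 21 gained a call, and 14 reversed. The cause of these shifts was not tested. T cell-like sums of 343052 and 377211 UMIs limit what can be seen in that class.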

Other observations

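The order of the members was alike in the classes at its lower end. Rpl15 had the lowest CPM of the members with standard names in all 6 classes of both libraries, from 369.4 CPM in responder dendritic-like cells to 1215 CPM in non-responder NK cell-like cells. The highest member differed by class. It was Rpl37 in fibroblast-like cells, at 10376 CPM in the non-responder and 10510.2 CPM in the responder library, and Rpl13a in T cell-like cells. It was Rpl41 in non-responder macrophage-like cells.

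Rpl36al, a relative of Rpl36a annotated with 2 exons, made up a larger part of the pair in the responder library in all classes but the NK cell-like one. Its UMIs were 59.4% of those of Rpl36a in non-responder and 70.1% in responder macrophage-like cells, 38.6% and 63.4% in T cell-like cells, 46.0% and 58.5% in fibroblast-like cells and 52.2% and 66.8% in dendritic-like cells. In NK cell-like cells the values were 39.5% and, on 13 UMIs, 24.5%. Its exons overlap those of the predicted gene Gm49383 on the same strand. Rpl7l1, a relative of Rpl7, was at 6.46% and 6.15% of Rpl7 in macrophage-like cells and, on 19 and 34 UMIs, at 1.97% and 3.46% in T cell-like cells.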
